A study of Mus musculus with 12 samples.

Results

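Transcripts of 8 cyclin genes, the D-type cyclins Ccnd1, Ccnd2 and Ccnd3, the E-type cyclins Ccne1 and Ccne2, the A-type cyclin Ccna2 and the B-type cyclins Ccnb1 and Ccnb2, were followed in RNA-seq libraries of mouse neural stem cells (NSCs). The genes were chosen by name, with earlier results of these data known. Each was matched by its symbol to a single Ensembl gene among the 45792 genes of the files. All 8 passed the filter on low counts, which 15706 genes passed. The 12 libraries held 4 of wild-type (WT) NSCs on the C57BL/6J background, 4 of Ncf1-/- NSCs with vehicle (treatment None in the labels) and 4 of Ncf1-/- NSCs given mouse recombinant Igfbp2. Ncf1 is the cytosolic p47phox subunit of the Nox2 NADPH oxidase, and Igfbp2 is a secreted protein that binds insulin-like growth factors. The Ncf1-/- mice were constitutive knockouts that had been back-crossed to C57BL/6J. NSCs came from the forebrain of pups 1 to 2 days of age and were grown separately for each pup. By the study's methods each Ncf1-/- pup gave a vehicle and an Igfbp2 culture. Cells were used at the second passage in serum-free medium with EGF and FGF as mitogens, insulin, transferrin, selenite and B-27, which every group received. Igfbp2 was added 48 h after plating at 100 ng/ml according to the labels (the study's methods give another dose), and RNA was collected 48 h later.

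Cyclins are the subunits that switch on the cyclin-dependent kinases (CDKs), and most rise and fall with the cell cycle. D-type cyclins are induced by mitogens and bind Cdk4 and Cdk6 in G1, E-type cyclins bind Cdk2 at the entry into S phase, Ccna2 works with Cdk2 in S phase and with Cdk1 in G2, and the B-type cyclins bind Cdk1 to start mitosis. In the embryonic and postnatal forebrain, Ccnd1 and Ccnd2 are the D-type cyclins that dividing neural progenitors are known for, whereas Ccnd3 is more widely expressed.

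Expected counts, which are the numbers of reads that RSEM assigned to each gene, summed to between 18201622 and 34086554 per library. Ncf1 itself had between 1 and 7 counts in any library, too few to check the genotype. NSC marker genes were present, with 8 of 8 tested, but in vehicle-treated Ncf1-/- NSCs against WT 2 were higher and 5 lower. Their summed level was 2456, 2568, 7970 and 3741 CPM (counts scaled to a common library total, corrected by the TMM factors explained below) in WT replicates 1 to 4. It was 7642 to 8231 CPM with vehicle and 7456 to 7999 CPM with Igfbp2. In this sum WT replicate 3 stood apart from the other WT libraries and lay within the range of the Ncf1-/- libraries. Vim weighed most in the sum, with a mean of 1847 CPM (SD 1862) in WT and 4040 CPM (SD 196) with vehicle. Sox2 went the other way, with means of 386 CPM (SD 15.9) in WT and 197 CPM (SD 3.92) with vehicle. Genes of other cell types differed as well, and their values stand beside the results that they accompany. The summed level of 4 Y-linked genes was 105 to 116 CPM in Ncf1-/- libraries with vehicle, 7.79 to 9.18 CPM in the Igfbp2-treated libraries, 107 to 118 CPM in WT replicates 1 to 3 and 6.46 CPM in WT replicate 4. Treatment with Igfbp2 and sex-linked expression therefore cannot be told apart, and this does not go with the study's statement that each Ncf1-/- animal gave a vehicle and an Igfbp2 culture. A spare sample sheet that accompanied the study's code lists WT replicate 4 as apocynin-treated, whereas the labels and the sheet that the code reads list it as untreated WT. It was kept as WT, and results are also given without it.

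Levels in CPM, above and below, are scaled by TMM factors, which correct for differences in RNA composition between libraries. Tests are edgeR's quasi-likelihood tests, two-sided, with Benjamini-Hochberg adjustment over 15706 genes, and "called" stands for an adjusted p below 0.05. Values after ± are SDs of the 4 libraries of a group, and those of log2 fold changes are standard errors (SE). In whole cultures, fewer cells that express a cyclin and less cyclin RNA per cell cannot be told apart.

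Vehicle-treated Ncf1-/- NSCs had higher levels of 7 of the 8 cyclins than WT NSCs, from 1.99-fold for Ccnd2 to 7.95-fold for Ccnd1. Ccnd3 was not called. The cyclins of S phase, G2 and mitosis, Ccna2, Ccnb1 and Ccnb2, rose between 4.66-fold and 5.76-fold. Of all genes tested, 28.9% were called higher in this comparison and 28.2% lower, and the median log2 fold change over the 8 cyclins was 2.05 beside 0.02 over all genes. The levels of 7 cyclins, all but Ccnd3, did not overlap between these groups, which held in the upward direction for 26.1% of all genes.

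**Figure D1:**
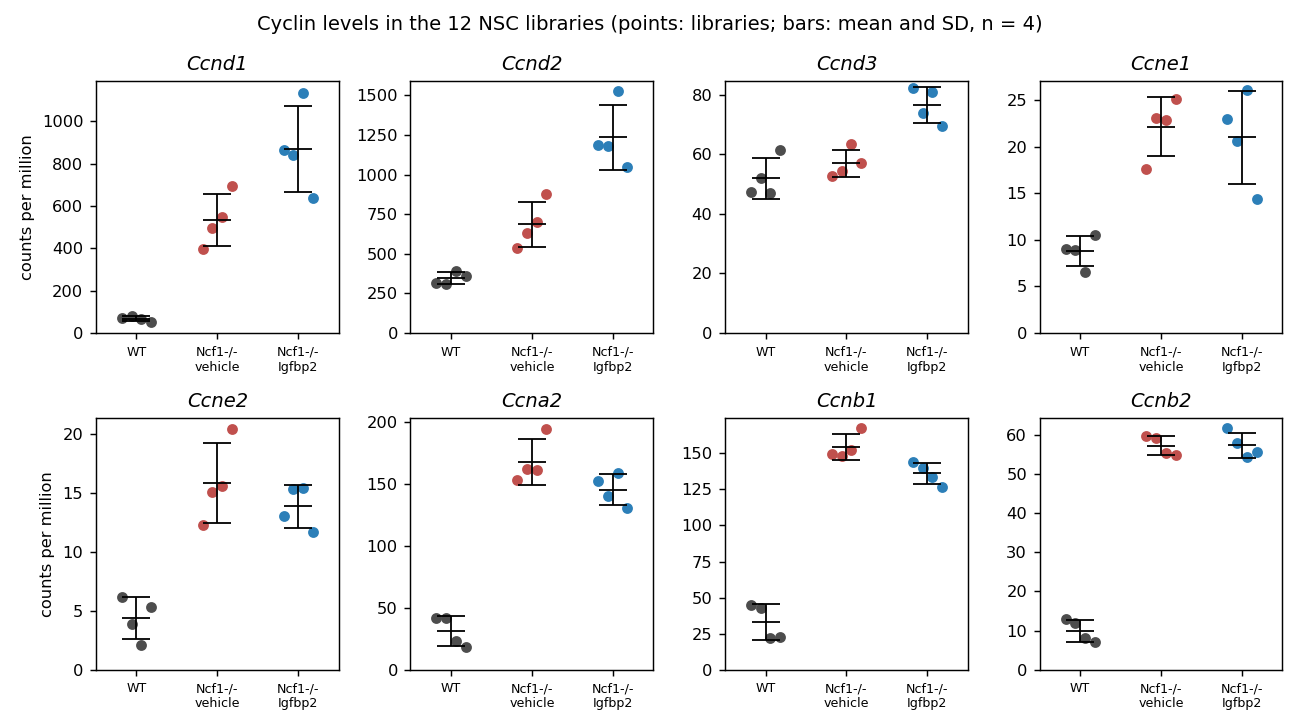
Level of each cyclin in TMM-scaled CPM (vertical axis, from 0) in each library (points) by group (WT, Ncf1-/- with vehicle, Ncf1-/- with Igfbp2), with mean and SD (bars, n = 4). In 7 panels every Ncf1-/- library lies above every WT library, and for Ccnd3 the WT and vehicle points overlap.

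Among the D-type cyclins, Ccnd1 (ENSMUSG00000070348, chr7:144929931-144939925, minus strand, GRCm38) moved most. It stood at 70.2, 78.4, 68.2 and 51.3 CPM in WT replicates 1 to 4 and at 398, 494, 546 and 692 CPM in vehicle-treated Ncf1-/- replicates 1 to 4. The lowest Ncf1-/- library was thus far above the highest WT library. The log2 fold change was 2.99 ± 0.21 (7.95-fold, adjusted p = 2.07e-07). Igfbp2-treated libraries held 866, 838, 1135 and 637 CPM, of which replicate 4 lay below vehicle-treated replicate 4.

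Ccnd2 (ENSMUSG00000000184, chr6:127125162-127152193, minus strand) was the most abundant cyclin in WT NSCs. Its levels were 317, 311, 391 and 358 CPM in WT and 537, 634, 699 and 875 CPM with vehicle, a log2 fold change of 0.995 ± 0.16 (1.99-fold, adjusted p = 0.000131). With Igfbp2 they were 1184, 1179, 1529 and 1048 CPM. The 3 groups did not overlap, and Igfbp2-treated NSCs stood highest.

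Ccnd3 (ENSMUSG00000034165, chr17:47505051-47599691, plus strand) differed least. WT libraries held 47.3, 52.1, 46.9 and 61.5 CPM and vehicle-treated libraries 52.8, 54.5, 63.3 and 57.1 CPM, which overlapped, with a log2 fold change of 0.13 ± 0.10 (95% interval -0.08 to 0.35, adjusted p = 0.274). Igfbp2-treated libraries held 82.2, 74.0, 81.0 and 69.3 CPM, all above the other libraries. Between vehicle and WT, Ccnd3 was called higher under plain library totals (0.31, beside a median of all genes of 0.19) and in a model with a Y-linked covariate (0.22), and it was not called on TPM by limma or the study's own test.

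The D-type cyclins also changed places. TPM, RSEM's abundance per transcript length scaled to a fixed sum, allows genes to be compared within a library. Ccnd1 made up 12.1% to 20.9% of the summed D-type TPM in WT, 43.6% to 51.2% with vehicle and 41.7% to 47.1% with Igfbp2. The share of Ccnd2 was 55.4% to 64.4%, 40.3% to 45.8% and 46.4% to 49.1% in the same order, and that of Ccnd3 was 19.9% to 26.2%, 8.51% to 10.9% and 6.53% to 9.15%. As ratios within a library these shares do not depend on the scaling between libraries. They do depend on the gene lengths that RSEM estimated, which for Ccnd2 with vehicle ran from 4336 to 5857 bases, replicate 4 being longest. The TPM of Ccnd1 was 0.196 to 0.378 times that of Ccnd2 in WT, 0.957 to 1.27 times with vehicle and 0.849 to 1.02 times with Igfbp2. Ccnd1 stood at 0.460 to 0.882 times the TPM of Ccnd3 in WT and at 3.99 to 6.02 times with vehicle.

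Ccnd1 has a protein-coding transcript of 3740 bases and a retained-intron transcript of 470 bases in the annotation, and the mean transcript length that RSEM lists for the gene in each library tells how much of the short transcript it estimated. It amounted to 7.78% to 13.1% of Ccnd1 transcripts in WT, 0.796% to 8.02% with vehicle and 1.43% to 2.46% with Igfbp2. The vehicle group ran from the lowest share of any library up into the WT range, which its replicate 2 reached. By an exact permutation test (two-sided, n = 4 against 4, smallest possible p = 0.0286) the difference from WT had p = 0.0571 with vehicle and p = 0.0286 with Igfbp2, and p = 0.371 between the treatments. After adjustment over these 3 comparisons the exact p was 0.0857, 0.0857 and 0.371, so that none passed. Both the split between transcripts and these shares are RSEM estimates.

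The E-type cyclins had the lowest mean TPM of the family in every group. Ccne1 (ENSMUSG00000002068, chr7:38097984-38107534, minus strand) stood at 9.01, 8.96, 6.60 and 10.5 CPM in WT, at 17.6, 23.0, 22.9 and 25.1 CPM with vehicle and at 22.9, 20.6, 26.1 and 14.4 CPM with Igfbp2. Its log2 fold change between vehicle and WT was 1.35 ± 0.19 (2.55-fold, adjusted p = 4.21e-05). WT lay below both Ncf1-/- groups, which overlapped each other. Ccne2 (ENSMUSG00000028212, chr4:11191351-11204779, plus strand) stood at 6.19, 3.89, 2.07 and 5.34 CPM in WT, resting on 72 to 136 counts per library, and at 12.3, 15.05, 15.6 and 20.4 CPM with vehicle. That was a log2 fold change of 1.88 ± 0.27 (3.69-fold, adjusted p = 5.78e-05), the widest error of the 8 cyclins. Igfbp2-treated libraries held 13.01, 15.3, 15.4 and 11.7 CPM, within or just below the vehicle range.

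Ccna2 (ENSMUSG00000027715, chr3:36564865-36572150, minus strand) held 41.3, 41.7, 22.8 and 18.6 CPM in WT and 153, 162, 161 and 194 CPM with vehicle. The log2 fold change was 2.43 ± 0.23 (5.39-fold, adjusted p = 1.76e-06). WT replicates 1 and 2 stood above WT replicates 3 and 4, and all 4 stood far below the Ncf1-/- libraries, of which those with Igfbp2 held 152, 140.3, 158 and 130.5 CPM.

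Ccnb1 (ENSMUSG00000041431, chr13:100778650-100786570, minus strand) held 44.9, 43.1, 21.8 and 22.8 CPM in WT, with the same split between replicates, and 149, 148, 152 and 167 CPM with vehicle, a log2 fold change of 2.22 ± 0.21 (4.66-fold, adjusted p = 1.94e-06). With Igfbp2 it held 144, 140.0, 134 and 127 CPM, which lay just below the vehicle range without overlap. Ccnb2 (ENSMUSG00000032218, chr9:70407692-70421547, minus strand) held 12.8, 11.8, 8.15 and 6.96 CPM in WT and 59.6, 59.1, 55.2 and 54.8 CPM with vehicle, the most even levels of any cyclin within a group. It rose by 2.53 ± 0.16 on the log2 scale (5.76-fold, adjusted p = 8.45e-08). Igfbp2-treated libraries held 61.6, 57.8, 54.2 and 55.5 CPM and overlapped the vehicle libraries.

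The pseudogene Ccnb2-ps is a copy that can share reads with Ccnb2. Its own expected counts gave 4.84 to 6.09 CPM in WT, 3.06 to 3.66 CPM with vehicle and 1.96 to 2.38 CPM with Igfbp2, highest in WT, where Ccnb2 was lowest. The expected counts of Ccnb2 were whole numbers in all 12 libraries. Sharing of reads between the gene and this copy was not tested.

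For these later cyclins the libraries of WT lay farther apart, relative to their mean, than those of either Ncf1-/- group. The coefficient of variation of Ccna2, Ccnb1 and Ccnb2 was 39.0%, 37.9% and 28.4% in WT and 11.05%, 5.76% and 4.36% with vehicle. It was 8.48%, 5.46% and 5.67% with Igfbp2. For Ccnd1 it ran the other way, at 17.0% in WT, 23.0% with vehicle and 23.6% with Igfbp2. No test of these spreads was made.

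The 250 bases before the start sites of the B-type cyclins are shown because both genes rose together, and those of Ccnd3 because it was not called between vehicle and WT. NF-Y, a trimeric transcription factor, binds the CCAAT box, and the CHR element is bound by the MuvB complex, both known from promoters of mitotic genes. Capitals mark CCAAT, CHR (TTTGAA) and E2F letters (TTCCCGC and its variants TTCGCGC as well as TTGCCGC and likewise TTGGCGC) on either strand. The sequences are RefSeq's for GRCm38.p6, from chr13:100786487-100786736 (minus strand), chr9:70421555-70421804 (minus strand) and chr17:47504801-47505050 (plus strand).
Ccnb1: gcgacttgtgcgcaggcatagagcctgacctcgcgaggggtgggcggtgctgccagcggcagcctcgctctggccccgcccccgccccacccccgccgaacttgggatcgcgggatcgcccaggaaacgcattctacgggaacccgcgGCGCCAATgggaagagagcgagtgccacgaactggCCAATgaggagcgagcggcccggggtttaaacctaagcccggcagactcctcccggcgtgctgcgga
Ccnb2: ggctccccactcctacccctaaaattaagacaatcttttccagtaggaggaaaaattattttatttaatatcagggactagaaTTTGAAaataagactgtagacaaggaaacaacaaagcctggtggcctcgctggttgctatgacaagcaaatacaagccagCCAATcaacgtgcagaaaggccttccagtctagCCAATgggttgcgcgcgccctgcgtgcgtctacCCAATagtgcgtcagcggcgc
Ccnd3: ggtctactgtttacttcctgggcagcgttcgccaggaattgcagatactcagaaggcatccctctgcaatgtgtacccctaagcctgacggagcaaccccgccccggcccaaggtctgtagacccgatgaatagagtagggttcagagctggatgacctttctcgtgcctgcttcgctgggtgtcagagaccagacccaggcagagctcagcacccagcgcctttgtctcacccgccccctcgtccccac

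Counted back from the start site, CCAAT began at positions -99 and -67 of Ccnb1 and at positions -87, -54 and -21 of Ccnb2, where 33.8% of the 32851 promoters in the table hold CCAAT at least once on either strand. Ccnb2 also held TTTGAA at position -167, as 15.99% of promoters do. The E2F letters of Ccnb1, at position -102, overlap its CCAAT at position -99, and 7.89% of promoters hold E2F letters. Ccnd3 has a further start site in the table, whose 250 bases hold CCAAT at position -108 and the CRE core TGACGT, present in 6.47% of promoters, at position -28. The GC box GGGCGG, found in 32.7% of promoters, occurred 4 times before Ccne1, 3 times before Ccnb1, 2 times before the Ccnd3 start shown and 1 time before the other. Neither the CCAAT box, the CHR element nor the E2F letters occurred before Ccne1, and the E-box CACGTG, found in 6.02% of promoters, occurred before none of these genes. The table holds 4 of the 8 cyclins, and Ccna2, Ccnd1, Ccnd2 and Ccne2 are not in it. These matches describe letters and were not tied to any measurement of binding.

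Genes of other cell types differed in the same comparison of vehicle with WT. Of 10 markers of oligodendrocytes, 9 were tested and 9 were lower in Ncf1-/- NSCs. Their summed level was 1868 to 9960 CPM in WT and 243 to 316 CPM with vehicle, where Mog and Ermn had 3 or fewer counts in every library. Of 9 markers of neuroblasts and neurons 7 were lower, with sums of 186 to 477 and 44.4 to 48.0 CPM, and of 7 astrocyte markers 6 were lower, with sums of 6466 to 11943 and 2446 to 2984 CPM. Oligodendrocyte precursor markers split, 2 of 6 higher and 4 lower, with sums of 2719 to 4095 and 2140 to 2298 CPM. Microglia markers summed to at most 2.13 CPM in any library, with 7 of 10 at 3 or fewer counts everywhere, and mesenchymal and vascular markers (3 higher and 2 lower of 7 tested) to at most 30.2 CPM. Within WT, the oligodendrocyte sums were 9652, 9960, 1868 and 5678 CPM in replicates 1 to 4, so that replicates 1 and 2 held the most of these markers and also the most Ccna2, Ccnb1 and Ccnb2. The astrocyte sums ran in another order, at 6466, 7091, 11943 and 10613 CPM, with the most in replicates 3 and 4. The part of these cell types in the cyclin levels was not tested.

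With WT replicate 4 left out, every remaining library of this comparison was of the kind with high Y-linked expression, and the same 7 cyclins were called. The log2 fold changes were then 2.85 for Ccnd1, 0.98 for Ccnd2, 0.19 for Ccnd3, 1.41 for Ccne1, 1.96 for Ccne2, 2.21 for Ccna2, 2.04 for Ccnb1 and 2.36 for Ccnb2. The study's own test, on TPM, called 5 cyclins higher and not Ccnd1 (2.97) or Ccnd2 (0.99).

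The catalytic partners and regulators of the cyclins were examined in lists written for this purpose. Of the CDK partners, Cdk1, which drives mitosis, rose by 2.42 ± 0.17 on the log2 scale, from 24.3 ± 7.19 to 130.2 ± 2.21 CPM (adjusted p = 2.07e-07), close to Ccnb1 and Ccna2. Cdk2, the partner of the E-type cyclins, rose by 1.28 ± 0.11 (16.02 ± 0.554 to 39.0 ± 3.34 CPM, adjusted p = 1.13e-06), and Cdk6 rose by 1.51 ± 0.20 (5.85 ± 1.74 to 16.9 ± 2.71 CPM, adjusted p = 2.56e-05). Cdk4, the other partner of the D-type cyclins and the most abundant of these kinases, rose by only 0.41 ± 0.10 (362 ± 41.6 to 482 ± 30.5 CPM, adjusted p = 0.00409).

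Of 8 genes that set the phosphorylation of CDKs, 6 were called higher with vehicle than in WT and 1 was called lower. The phosphatase gene Cdc25c, whose product removes the inhibitory phosphates from Cdk1, rose most (2.11 ± 0.25, adjusted p = 1.11e-05), and Cdk7, the CDK-activating kinase, fell by 0.44 on the log2 scale (SE 0.06, adjusted p = 6.96e-05). Of 10 genes of cyclin degradation and Cks subunits, 8 were higher and 1 lower. Cks2, a small subunit of mitotic CDK complexes, rose by 2.44 ± 0.17 (adjusted p = 1.80e-07), and Ambra1, the substrate receptor that marks D-type cyclins for degradation, fell by 0.59 on the log2 scale (SE 0.08, from 65.9 ± 4.60 to 43.7 ± 2.58 CPM, adjusted p = 4.41e-05).

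Of 9 genes of G2/M transcription, 5 were higher and 0 lower by edgeR, as by DESeq2, with 1 lower at an unadjusted p under 0.05. Mybl2, the B-Myb activator of mitotic genes, rose most (1.63 ± 0.25, adjusted p = 8.80e-05), while the MuvB subunit Lin52 gave the lowest value (-0.23 ± 0.11, adjusted p = 0.0744). All 10 proliferation markers were higher, among them Mki67 (1.28 ± 0.25, from 155 ± 52.0 to 376 ± 100.5 CPM, adjusted p = 0.000770), Top2a (1.94 ± 0.21, adjusted p = 6.69e-06) and Bub1, the mitotic checkpoint kinase with the largest rise of the list (2.32 ± 0.23, adjusted p = 2.95e-06). The 15 tested of 17 other cyclins were mixed, with 5 higher and 3 lower. The highest was Ccnf, the cyclin of an SCF ubiquitin ligase (1.72 ± 0.17, adjusted p = 2.47e-06), and the lowest was Ccny (-0.97 ± 0.16, adjusted p = 0.000150). The medians of these lists were 1.40 for CDK partners, 0.98 for CDK phosphorylation, 1.16 for degradation and Cks subunits, 0.30 for G2/M transcription, 1.83 for proliferation markers and 0.11 for other cyclins, beside 0.02 for all genes.

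**Figure D2:**
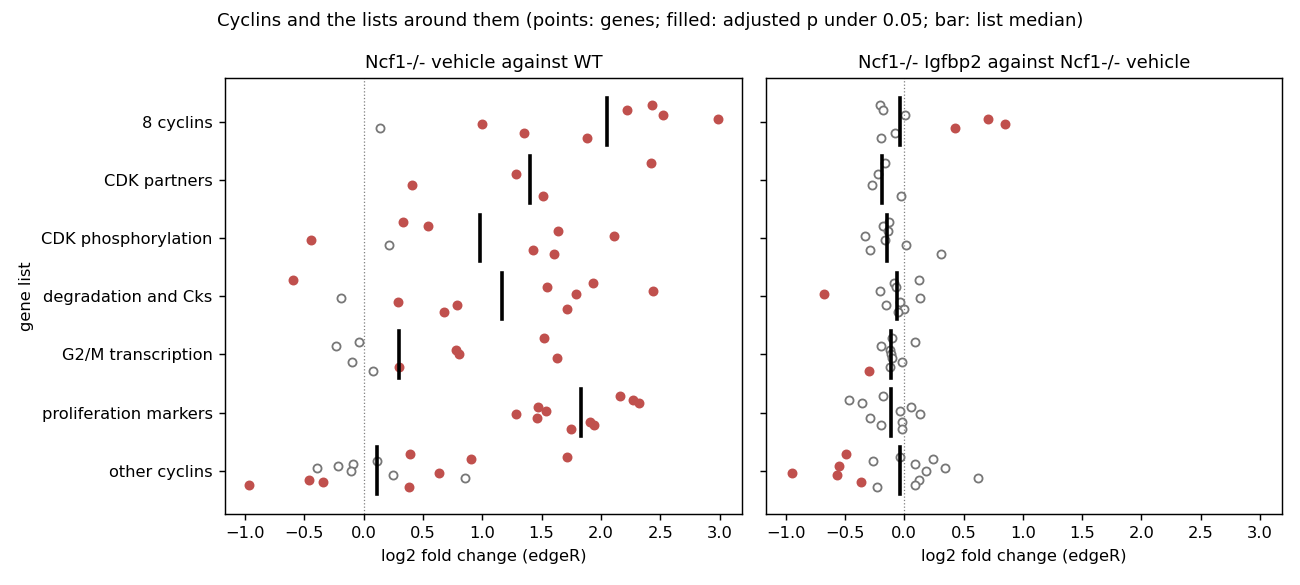
Log2 fold changes by edgeR (horizontal axis) of the 8 cyclins and of 6 lists of related genes (vertical axis) for vehicle-treated Ncf1-/- against WT NSCs (left) and Igfbp2-treated against vehicle-treated Ncf1-/- NSCs (right). Points are genes, filled at an adjusted p under 0.05, and bars are list medians. On the left most points lie right of 0, and on the right the only filled points above 0 are the 3 D-type cyclins.

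The comparison of Igfbp2-treated with vehicle-treated Ncf1-/- NSCs asks what added Igfbp2 does to cells that lack Ncf1. The 3 D-type cyclins were called higher with Igfbp2 and the 5 cyclins of later phases were not called, and 0 cyclins were called lower by edgeR, by DESeq2 or at an unadjusted p under 0.05. In the same comparison 14.2% of all genes were called higher and 10.7% lower. Ccnd2 rose by 0.85 ± 0.16 (1.80-fold, from 686 ± 142 to 1235 ± 206 CPM, adjusted p = 0.00309), Ccnd1 by 0.71 ± 0.20 (1.63-fold, from 533 ± 123 to 869 ± 205 CPM, adjusted p = 0.0207) and Ccnd3 by 0.43 ± 0.10 (1.35-fold, from 56.9 ± 4.62 to 76.6 ± 6.06 CPM, adjusted p = 0.00945). Ccnd2 and Ccnd3 were higher in each Igfbp2-treated library than in any vehicle-treated library, as were 19.3% of all genes, whereas the Ccnd1 levels overlapped.

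For the later cyclins the intervals of the difference still allow changes of some size in either direction. The log2 fold change was -0.08 for Ccne1 (95% interval -0.47 to 0.31, adjusted p = 0.772), -0.19 for Ccne2 (-0.74 to 0.35, adjusted p = 0.598) and -0.20 for Ccna2 (-0.66 to 0.26, adjusted p = 0.506). It was -0.18 for Ccnb1 (-0.61 to 0.25, adjusted p = 0.530) and 0.00 for Ccnb2 (-0.31 to 0.31, adjusted p = 0.994). Ccnb1 was nonetheless lower in each Igfbp2-treated library than in any vehicle-treated one, as were 14.7% of all genes. In a fit of these groups alone, without WT, Ccna2 (-0.25) and Ccnb1 (-0.23) were called lower, as were 2759 of 15101 genes. The study describes vehicle and Igfbp2 cultures of shared NSC preparations. With replicate number as a block edgeR also called Ccnb1 lower (-0.23, adjusted p = 0.0398), as were 2560 of 15101 genes. However, the labels do not say which libraries shared a preparation, and Y-linked expression goes against such pairs.

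**Figure D3:**
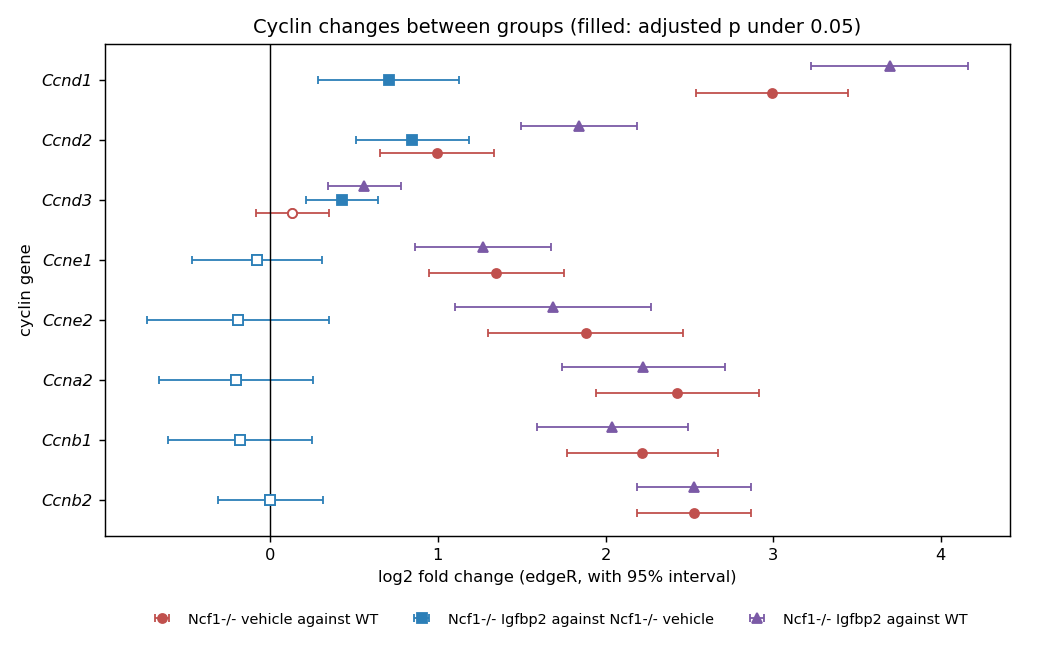
Log2 fold change of each cyclin by edgeR with its 95% interval (horizontal axis) in the 3 comparisons (colours and symbols), filled where the adjusted p was under 0.05. With Igfbp2 against vehicle only the D-type cyclins are filled, between 0.43 and 0.85, and against WT every cyclin is above 0 in both Ncf1-/- groups, Ccnd3 with vehicle being open.

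Within each library, where no scaling between libraries enters, the balance of the family differed between the treatments. D-type cyclins made up 55.1%, 59.7%, 61.2% and 61.3% of the summed TPM of the 8 cyclins in the vehicle-treated libraries and 72.0%, 72.7%, 76.5% and 69.8% in the Igfbp2-treated libraries, without overlap. In WT they made up 65.2%, 66.1%, 79.6% and 78.9%, which overlapped with the Igfbp2-treated group. The share of Ccna2 was 12.1% to 13.8% with vehicle and 7.51% to 9.14% with Igfbp2, that of the B-type cyclins 21.9% to 27.1% and 12.99% to 18.4%, and that of the E-type cyclins 3.96% to 4.46% and 2.60% to 3.19%. The TPM of Ccnd1 was 1.74 to 2.57 times that of Ccna2 with vehicle, 3.19 to 4.80 times with Igfbp2 and 1.18 to 2.15 times in WT. For Ccnd2 this ratio was 1.82 to 2.28, 3.75 to 4.72 and, in WT, 3.69 to 10.4. Among the later cyclins, the ratio of Ccnb1 to Ccna2 overlapped between the treatments, being 1.26 to 1.31 with vehicle and 1.15 to 1.33 with Igfbp2, beside 1.36 to 1.69 in WT.

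**Figure D4:**
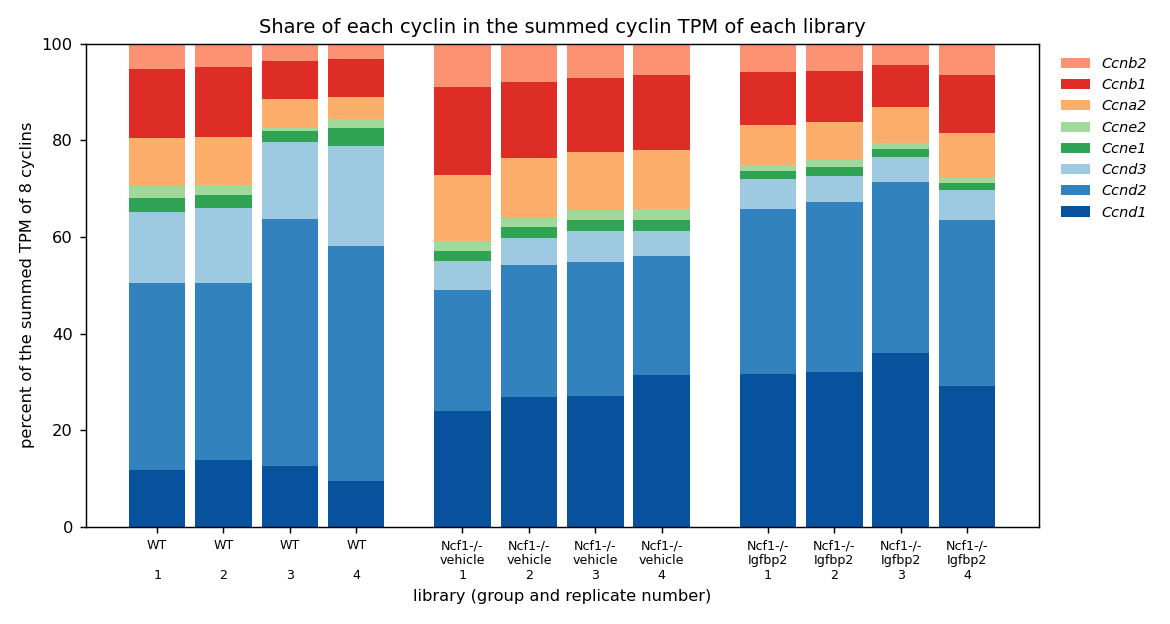
Share of each cyclin in percent of the summed TPM of the 8 cyclins (vertical axis, 0 to 100) in each of the 12 libraries (horizontal axis, by group and replicate number). The blue D-type segments reach 55.1% to 61.3% with vehicle and 69.8% to 76.5% with Igfbp2, and the dark blue Ccnd1 segment is smallest in WT.

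Which D-type cyclins were called with Igfbp2 depended on how the libraries were scaled, and the scalings placed the median of all genes differently. This median was 0.04 with TMM factors and -0.23 with library totals, under which 10.97% of the called genes were higher, as against 57.0% with TMM factors. With library totals Ccnd2 was called (0.58), and Ccnd1 (0.44, adjusted p = 0.116) and Ccnd3 (0.16, adjusted p = 0.254) were not. Relative to the median of all genes the values with library totals were 0.81 for Ccnd2, 0.67 for Ccnd1 and 0.39 for Ccnd3. With limma on log2(TPM + 1) no D-type cyclin was called and Ccna2 (-0.64), Ccnb1 (-0.65) and Ccnb2 (-0.47) were called lower. In that fit 6154 of 15706 genes were called lower and 200 higher, with a median of all genes of -0.30. The study's test on TPM called Ccnb1 (-0.66) and Ccnb2 (-0.47) lower, where 2084 of 27879 genes were called lower and 64 higher. In TPM, 5 short structural RNAs took 56.0% to 60.3% of the total with vehicle and 62.1% to 72.3% with Igfbp2, and with TPM rescaled without them only Ccnd2 was called (0.70).

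**Figure D5:**
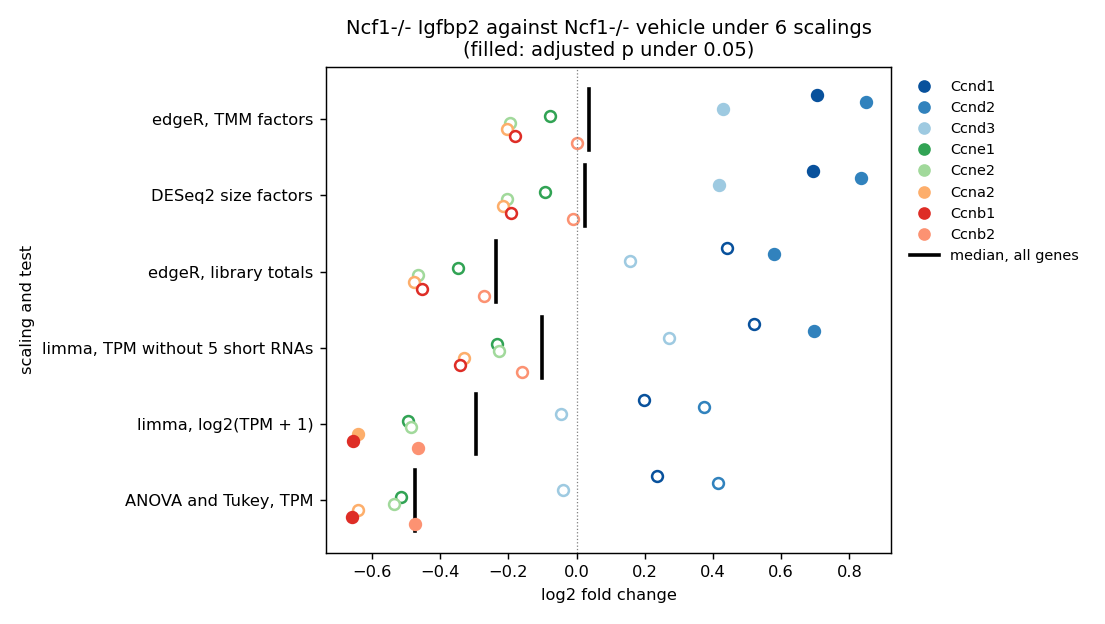
Log2 fold change of each cyclin (coloured points, filled at an adjusted p under 0.05) between Igfbp2-treated and vehicle-treated Ncf1-/- NSCs (horizontal axis) under 6 combinations of scaling and test (vertical axis). Black bars are the median of all genes, from 0.04 at the top to -0.47 at the bottom, and the D-type cyclins lie right of this bar and of the other cyclins in every row.

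The Ccnd1 call also rested on single libraries, being lost without vehicle replicate 1, 2 or 3 and without Igfbp2 replicate 2 or 3, with values from 0.51 to 0.69 and adjusted p from 0.0530 to 0.0798 by edgeR. Ccnd2 and Ccnd3 kept their calls without any library left out in turn. No library of either treatment matched the other in Y-linked expression, so that no value within such a batch can be had, and in a fit with a Y-linked covariate, estimated from WT replicate 4 against the other WT libraries, no cyclin was called (Ccnd1 1.13, Ccnd2 0.78, Ccnd3 0.11).

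Calls among genes around the cyclins are given beside those of all genes, 14.2% higher and 10.7% lower with Igfbp2 by edgeR. By edgeR 0 of 4 CDK partners, 0 of 8 genes of CDK phosphorylation and 0 of 10 proliferation markers were called. At an unadjusted p under 0.05 these counts were 1, 2 and 1, and by DESeq2 they were 1, 0 and 0. The log2 fold changes of Cdk1, Cdk2, Cdk4 and Cdk6 were -0.16, -0.22, -0.27 and -0.03, and those of Mki67 and Top2a were 0.14 and -0.19. With library totals, under which 5258 of all 15706 genes were called lower, so were 3 of the CDK partners, 7 of the genes of CDK phosphorylation, 4 of the 10 genes of degradation, 5 of the 9 of G2/M transcription and 3 of the proliferation markers. Single genes were called lower in the lists of degradation (Fbxo5, an inhibitor of the anaphase-promoting complex, -0.68 ± 0.21, adjusted p = 0.0308) and of G2/M transcription (Nfyc, an NF-Y subunit, -0.30 ± 0.08, adjusted p = 0.0172). Of the other cyclins 5 were called lower and 0 higher by edgeR (6 and 2 at an unadjusted p under 0.05, and 6 and 1 by DESeq2). They were Ccnl1 (-0.94 ± 0.11, adjusted p = 0.000496), Ccnl2 (-0.57), Ccnj (-0.55), Ccnc (-0.49) and Ccnt2 (-0.37). These 7 genes were named after their values were seen. Of the NSC markers 1 was higher and 1 lower, and of the oligodendrocyte precursor markers 1 was higher. Of the markers of oligodendrocytes and astrocytes 0 and 0 were called by edgeR (3 and 0 at an unadjusted p under 0.05, 1 and 0 by DESeq2), with sums of 265 to 355 and 2593 to 3562 CPM with Igfbp2. In the other lists 3 of 9 neuroblast and neuron markers were lower, and 3 of 7 mesenchymal and vascular markers were higher, at a summed 13.6 to 16.3 CPM against 7.45 to 10.1 CPM. The part of these in the cyclin values was not tested.

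Against WT, Igfbp2-treated Ncf1-/- NSCs had all 8 cyclins called higher, where 31.6% of all genes were, and no cyclin overlapped with WT, where 27.8% of all genes were higher without overlap. This comparison shares its WT libraries with that of vehicle against WT and its Igfbp2 libraries with that of the treatments. The log2 fold changes were 3.70 ± 0.22 for Ccnd1 (12.97-fold), 1.84 ± 0.16 for Ccnd2, 0.56 ± 0.10 for Ccnd3, 1.27 ± 0.19 for Ccne1 and 1.69 ± 0.27 for Ccne2. They were 2.22 ± 0.22 for Ccna2, 2.04 ± 0.21 for Ccnb1 and 2.53 ± 0.16 for Ccnb2, and the largest adjusted p was 0.000320, for Ccnd3. No cyclin that was higher in vehicle-treated Ncf1-/- NSCs than in WT was called lower with Igfbp2 against vehicle in the fit of all 3 groups under TMM scaling. Without WT replicate 4 all 8 remained called, between 0.58 and 3.52, but every WT library then has high and every Igfbp2 library low Y-linked expression, so that the groups and sex-linked expression cannot be told apart there. Markers of other cell types differed here too, in a comparison where 4837 of all 15706 genes were called lower. Of the oligodendrocyte markers 9 of 9 tested were lower with Igfbp2 than in WT, as were 7 of 9 neuroblast and neuron markers. Of 7 astrocyte markers 6 were lower and 1 was higher. Oligodendrocyte precursor markers split, with 3 of 6 lower and 2 higher, and of the NSC markers 2 were higher and 5 lower. The oligodendrocyte sums were 1868 to 9960 CPM in WT and 265 to 355 CPM with Igfbp2, and the astrocyte sums were 6466 to 11943 and 2593 to 3562 CPM. Their part in the cyclin values was not tested.

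Ranked by TPM, the family had a different order in the groups. In every WT library Ccnd2 was first (55.4 ± 12.3 TPM) and Ccnd3 second (21.0 ± 3.92 TPM). Behind them came Ccnd1 (14.9 ± 2.64 TPM) and Ccnb1 (13.8 ± 4.05 TPM), which did not differ beyond their spread, then Ccna2 (9.40 ± 3.02 TPM), Ccnb2 (5.13 ± 1.02 TPM), Ccne1 (3.59 ± 0.726 TPM) and Ccne2 (2.23 ± 0.805 TPM). With vehicle, Ccnd1 (117 ± 36.2 TPM) and Ccnd2 (109.6 ± 20.0 TPM) led and did not differ beyond their spread, Ccnd2 being first in 3 libraries and Ccnd1 in 1. The library led by Ccnd1 was replicate 4, for which RSEM gave the longest Ccnd2 length of the group. Ccnd1 and Ccnd2 were followed in all 4 libraries by Ccnb1 (67.3 ± 9.76 TPM), Ccna2 (52.5 ± 8.41 TPM), Ccnb2 (31.2 ± 2.39 TPM) and Ccnd3 (24.1 ± 3.68 TPM), so that Ccnd3 went from the second to the sixth place. With Igfbp2, Ccnd2 (146 ± 47.9 TPM) and Ccnd1 (137 ± 54.6 TPM) again led, and Ccnd3 (23.4 ± 4.64 TPM) and Ccnb2 (22.5 ± 3.56 TPM) exchanged places between libraries. Ccne1 and Ccne2 were last in every Ncf1-/- library, at 9.58 ± 2.16 and 8.47 ± 2.31 TPM with vehicle and 6.71 ± 2.50 and 5.84 ± 1.93 TPM with Igfbp2.

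Likeness of profiles was measured as the root mean square distance between log2 CPM values of the 12 libraries, each gene centred on its own mean, and it is a description in which the points share groups and libraries. Within the family the closest were Ccna2 and Ccnb1 (0.14 log2 units), Ccna2 and Ccnb2 (0.19) and Ccnb1 and Ccnb2 (0.21), then Ccne1 and Ccne2 (0.33). The D-type cyclins were not close to each other, with 0.56 between Ccnd2 and Ccnd3, 0.93 between Ccnd1 and Ccnd2 and 1.43 between Ccnd1 and Ccnd3, the widest distance of any pair. Among 11164 other genes that averaged 5 CPM or more, the 2 nearest to Ccna2 were Hmmr (0.10) and Pbk (0.10), those nearest to Ccnb1 were Ska3 (0.07) and Aurkb (0.09), and those nearest to Ccnb2 were Cep55 (0.09) and Cdk1 (0.12). For Ccne1 they were Slc35g1 (0.13) and 3110082I17Rik (0.15), and for Ccne2 Fignl1 (0.17) and Cdc45 (0.18). The 2 nearest to Ccnd1 were Palmd (0.22) and Tm4sf1 (0.26), farther off than for any other cyclin. Palmd went from a mean of 1.35 CPM in WT to 11.6 CPM with vehicle and 19.0 CPM with Igfbp2. Those nearest to Ccnd2 were Slc41a2 (0.14) and Ybx3 (0.17), and those nearest to Ccnd3 were Chst12 (0.07) and Kdelr2 (0.08).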

How the data were processed

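RNA-seq of rRNA-depleted total RNA was measured in 12 libraries, 4 per group, and groups were taken from the labels. The authors aligned reads to GRCm38 with Bowtie2 and deposited, per library, RSEM expected counts, TPM and FPKM per gene (versions are not given in the sources used here). FPKM was not used. A merged table deposited by the authors is labelled TPM but holds a score, TPM times the number of transcripts (in 257083 of 257083 values above 0), and served only to match symbols. Expected counts, of which a median of 15.9% per library were not whole, were rounded and tested in edgeR 4.0.16 (R 4.3.3; quasi-likelihood, TMM factors, 3 groups in a single fit) over the 15706 genes that passed its expression filter, which hold 99.9% of counts. P-values measure the spread between cultures. Intervals cover 95%. Coordinates and transcripts are from GENCODE M21.

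The cyclins, lists and tests were chosen with earlier results of these data known. Genes named were the 8 cyclins, Cdk1, Cdk2, Cdk4, Cdk6, Mki67 and Top2a, the highest and lowest gene of each list between vehicle and WT, and the 2 genes nearest to each cyclin. Alternatives were library totals, DESeq2 1.42.0, other filters, limma 3.58.1 on log2 TPM (pseudocounts 1 and 0.1), the study's ANOVA with Tukey's test, a Y-linked covariate, a replicate block and each library left out. Counts over the lists under library totals, by DESeq2 and without each library were added after seeing the data. Scripts were tested on simulated data.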

Additional observations from a re-analysis of the deposited data

How the results depend on the processing

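Between vehicle and WT, leaving out each library in turn gave 7 cyclins and 8254 to 9406 genes called, and ANOVA with Tukey's test on TPM called 4328 genes. Between Igfbp2 and WT the same ranges were 8 cyclins and 9192 to 10031 genes, and ANOVA with Tukey's test called 5 cyclins (not Ccnd3, Ccne1 or Ccne2) and 5592 genes. Between Igfbp2 and vehicle, where 3923 genes were called, library totals gave 5906 genes (648 higher) and 1 cyclin, limma on log2(TPM + 1) 6354 genes (200 higher) and with a pseudocount of 0.1 6519 (165 higher), and ANOVA with Tukey's test 2148 (64 higher). The fit of 2 groups called 5 cyclins and 5709 genes, and TPM rescaled without 5 short RNAs called 1 cyclin and 3162 genes. The Y-linked covariate called 0 cyclins (adjusted p of 0.317 to 0.863 for the D-type cyclins, by edgeR) and 5 genes. Leaving out each library gave 2 to 3 cyclins and 2294 to 4872 genes, the count falling to 2320 without vehicle replicate 1, 2294 without vehicle replicate 2 and 2550 without Igfbp2 replicate 2.

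Signs of cyclin values turned in this last comparison alone. Ccnb2, at 0.00, became -0.27 with library totals, -0.011 with DESeq2, -0.060 at a mean of at least 5 CPM, -0.047 in the fit of 2 groups, -0.47 with ANOVA, -0.47 and -0.48 with limma at pseudocounts of 1 and 0.1 and -0.16 with rescaled TPM, and it ran from -0.060 to 0.023 with each library left out. Ccnd3 became -0.040 with ANOVA and -0.046 and -0.048 with limma. Ccna2 became 0.61 and Ccnb1 0.41 with the Y-linked covariate, and Ccne1 ran from -0.25 to 0.036 with each library left out. The cause was not tested. Over all cyclins and comparisons, 477 alternative values kept sign and call, 25 lost the call, 10 gained it and 24 changed sign.

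The study states that vehicle and Igfbp2 cultures shared preparations, but the labels number the libraries in a single series, so pairs could be formed only by replicate number within each group. Deviations from the group means of same-numbered vehicle and Igfbp2 libraries had correlations across genes from -0.138 to 0.136 over 4 pairs, and those of different numbers from -0.407 to 0.443 over 12, and Y-linked expression went against every such pair, so the numbers were not taken to pair the samples. The replicate block called 5434 genes and 4 cyclins (Ccnd1 0.66, Ccnd2 0.81, Ccnd3 0.38 and Ccnb1 -0.23), and Ccnb2 was -0.047 in the block. Ccne2 had 72 counts in its lowest library, the fewest of the 8 cyclins.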
